A study of Mus musculus with 28 samples.

Results

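miR-224-5p (mmu-mir-224-5p in the tables) was followed in alveolar macrophages (AM) of mice exposed to filtered air (FA) or ozone (O3). It is 1 of the 607 miRNAs listed in at least 1 of the 4 deposited tables, it was taken by its name in each table, and it was chosen for its rise after O3 in knockout (KO) mice, so its KO values are given as a description with no test. Small RNA was sequenced from cells of bronchoalveolar lavage in 28 libraries of 8 groups. Co-ex mice carried both human surfactant protein A genes, SP-A1 and SP-A2 (6A2/1A0), in C57BL/6J mice with SP-A knocked out, and KO mice lacked SP-A, so no group had mouse SP-A. All mice were 12 weeks old, breathed FA or O3 for 3 h and had 4 h of recovery, and the females were synchronised for the oestrous cycle. Each sex and exposure gave 4 libraries in co-ex and 3 in KO, while the study states 4 animals for each group. The sources used here do not name the promoter of the human genes, and they do not say outright that each library is 1 mouse, so p-values measure the spread between libraries.

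The libraries held between 41542 and 2082034 reads on miRNAs, with a median of 490152. miRNAs known from myeloid cells, such as miR-223, miR-142a and miR-146a, were present in every group, with no listed member at 0 throughout a group and a summed level between 42578 and 223277 rpm, reads per 1000000 miRNA reads of the library. One library stood apart on other measures than miR-224-5p. KO males, FA replicate 3, had the lowest median correlation of the 28 with the libraries of its own group (0.749, on log2 values). Its correlation with the O3 libraries of its table was higher (0.818). This was not particular to it, as FA replicates 1 (0.851 and 0.893) and 2 (0.847 and 0.873) and some co-ex libraries had the same order. FA replicate 3 of KO males also held the lowest myeloid sum (42578 rpm), close to the 43300 rpm of co-ex males, FA replicate 3. Its mesenchymal sum was the highest (25890 rpm, against 143 to 9784 rpm in the other 27 libraries). Results on KO males after FA that it changes are therefore given with and without it.

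miRNAs are short RNAs that pair with messenger RNAs, mainly through the seed at bases 2 to 8, and lower their translation and stability. The gene of miR-224 lies with that of miR-452 in an intron of Gabre, which encodes the epsilon subunit of the GABA-A receptor, on the X chromosome. miR-224 is best known from liver cancer, where it is abundant, and is described as a miRNA induced by inflammatory cytokines through NF-kappaB and by TGF-beta, with Smad4 among its targets. Its sequence is shown first, as it decides whether reads could belong to a relative, with the seed in capitals in the mature form and both mature arms in capitals in the hairpin (RefSeq, GRCm38.p6).
miR-224-5p: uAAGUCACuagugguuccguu
Mir224 hairpin: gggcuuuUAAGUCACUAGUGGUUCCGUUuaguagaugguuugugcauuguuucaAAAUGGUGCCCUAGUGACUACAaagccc
The mature miR-224-5p has 21 bases at chrX:72261085-72261105, and the hairpin lies at chrX:72261031-72261112, both on the minus strand. The hairpin is within the intron between exons 6 and 7 of the 9 exons of Gabre (chrX:72255999-72274803, minus strand), and 1111 bases separate it from the Mir452 hairpin (chrX:72262224-72262308). The seed AAGUCAC is shared by 0 of the 1678 other mouse mature miRNAs compared, and the longest stretch shared with any of them has 9 bases. No stretch of 18 bases of miR-224-5p occurs in the transcripts of another gene among 55341 genes searched. The 3p arm of miR-224 and both arms of miR-452 were listed in 0 of the 4 tables, so the intron could be followed by miR-224-5p alone.

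In KO females, all 3 O3 libraries had more miR-224-5p than any of the 3 FA libraries. The normalised read counts, which are the reads divided by a size factor of the library, were 9.03, 65.2 and 4.89 after FA and 155, 194 and 251 after O3 (replicates 1, 2 and 3). These values rest on 16, 89 and 7 reads after FA and on 183, 45 and 325 reads after O3. The groups did not overlap, and the FA library nearest to the O3 libraries was replicate 2. The mean was 26.4 ± 33.7 after FA and 200.02 ± 48.1 after O3 (SD, n = 3 each), a ratio of 7.59. The log2 fold change on the log2(value + 1) scale was 3.65 with a standard error of 0.99, against a median of 0.06 over the 319 miRNAs tested. Among those 319, 61 (19.1%) had every O3 library above every FA library, and 32 (10%) were called higher after O3 at an adjusted p under 0.1. Because miR-224-5p was chosen on this contrast, nothing is read from its place among them.

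The size of the difference in KO females depended on 1 FA library. Without FA replicate 2 the ratio of means was 28.7, and the lowest O3 value was 17.2 times the highest FA value, against 2.38 times with all libraries. Leaving out any other library gave ratios between 5.39 and 8.43. By their library codes, FA replicates 2 and 3 of KO females and FA replicate 3 of KO males (137, 138 and 140) came from a later run of codes than the other KO libraries (118 to 126). Within the first run, 1 FA library stood against 3 O3 libraries, with a ratio of 22.1. What the codes stand for is not given in the sources used here. In bulk RNA, more miR-224-5p per cell and more cells that hold it cannot be told apart.

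In KO males, a rise of miR-224-5p after O3 did not hold for all libraries. miR-224-5p had normalised read counts of 12.2, 26.0 and 1957 after FA, from 12, 35 and 1311 reads. After O3 it had 523, 704 and 496, from 926, 562 and 459 reads. FA replicates 1 and 2 were below every O3 library, and FA replicate 3 was above every O3 library. The mean was 665 ± 1119 after FA and 574 ± 113 after O3 (SD, n = 3 each), so the ratio of means was 0.864, while the log2 fold change of limma, fitted on log values, was 2.68 with a standard error of 1.75. Fitted on the recovered reads, the log2 fold change was -0.05 in edgeR (standard error 1.56) and -0.16 in DESeq2 (standard error 1.53). Without FA replicate 3 the ratio was 30.1, the lowest O3 value was 19.1 times the highest FA value, and the log2 fold change was 4.91. The same 2 FA libraries are those of the first run of codes. Of the 440 miRNAs tested in KO males, 34 (7.73%) had every O3 library above every FA library, and 4 (0.909%) were called higher after O3, and without FA replicate 3 the first share was 108 of 479 (22.5%).

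**Figure D1:**
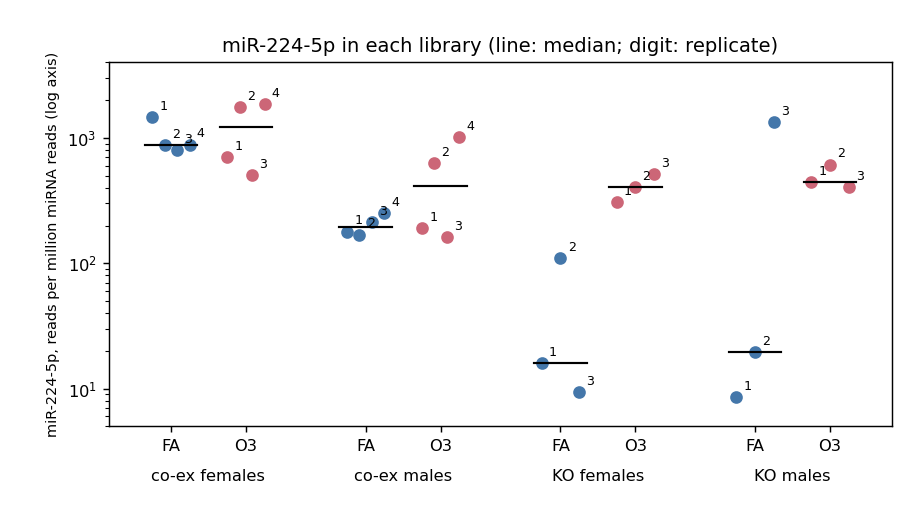
miR-224-5p in rpm (log axis) in each of the 28 libraries by genotype, sex and exposure, with a digit for the replicate and a line at the group median. In KO females the FA libraries lie between 9.40 and 109 rpm and the O3 libraries between 309 and 512 rpm, while KO males have 1 FA library at 1336 rpm above O3 libraries of 406 to 611 rpm.

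In co-ex mice, which the stated reason for choosing the miRNA does not name, miR-224-5p was tested and did not pass in either sex. The miRNA was chosen with earlier results of these data known, so these tests may not be independent of the choice. Within each sex the FA libraries had lower codes than the O3 libraries, so exposure and code order cannot be told apart. Co-ex females had 225, 149, 131 and 125 normalised reads after FA. After O3 they had 117, 271, 73.9 and 298. The O3 libraries lay on both sides of the FA libraries, 2 above and 2 below. The log2 fold change was 0.09 with a standard error of 0.51 (limma, adjusted p = 0.969, 271 miRNAs tested), and the means were 157 ± 46.0 and 189.9 ± 111 (SD, n = 4 each). An exact two-sided permutation test over the libraries gave p = 0.829.

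Co-ex males had 68.9, 56.4, 73.6 and 67.2 normalised reads after FA, a narrow range. After O3 they had 67.7, 232, 60.5 and 323. O3 replicates 2 and 4 were above every FA library, and O3 replicates 1 and 3 lay within the FA range. The log2 fold change was 0.99 with a standard error of 0.60 (limma, adjusted p = 0.944, 312 miRNAs tested), and the means were 66.5 ± 7.28 and 171 ± 129 (SD, n = 4 each). The exact two-sided permutation p was 0.286, with 0.0286 the smallest that 4 against 4 libraries allow. limma called 1 of the 271 miRNAs in co-ex females (0.369%, lower after O3) and 0 of the 312 in co-ex males, where 11 had an unadjusted p under 0.05 and edgeR and DESeq2 also called 0. The difference between KO and co-ex in the response of miR-224-5p belongs to the choice of the miRNA and was not tested.

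**Figure D2:**
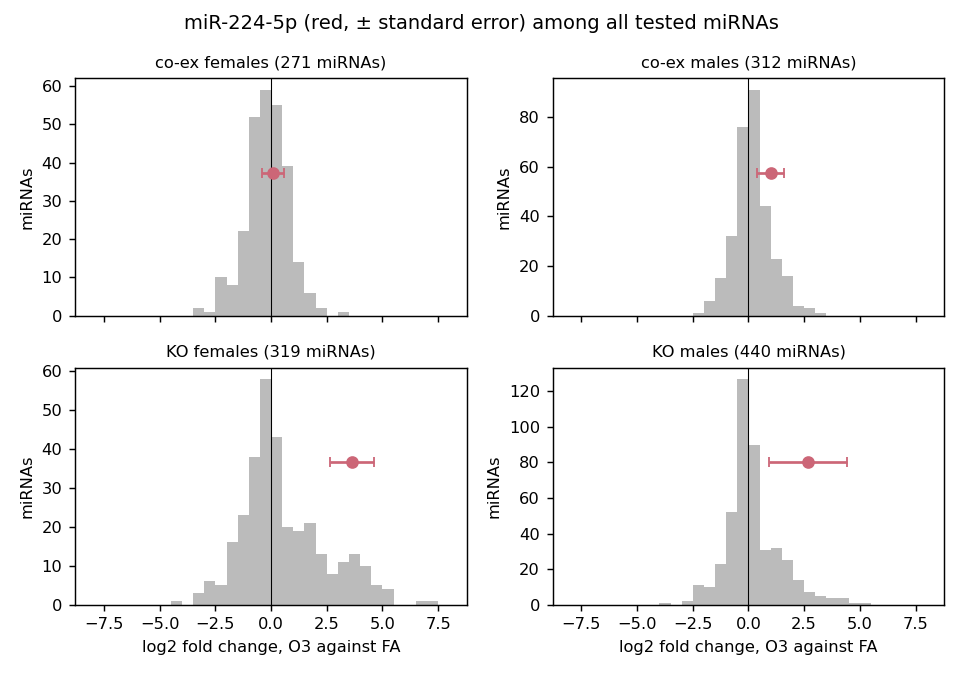
Log2 fold changes of O3 against FA for all miRNAs tested in each table (grey bars, number of miRNAs), with miR-224-5p as a red point with its standard error (its height has no meaning). The point stands at 0.09 in co-ex females, 0.99 in co-ex males, 3.65 in KO females and 2.68 in KO males, where its standard error of 1.75 is the widest of the 4.

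Across the 8 groups the median level was lowest in KO mice after FA. The choice of the miRNA for its rise in KO favours low KO values after FA, so this order is a description only. Since each table was normalised on its own, levels across tables are given in rpm from the recovered reads. By the group median the order was KO females after FA (16.0 rpm), KO males after FA (19.6), co-ex males after FA (196), KO females after O3 (405), co-ex males after O3 (411), KO males after O3 (445), co-ex females after FA (883) and co-ex females after O3 (1223). The KO groups after FA overlapped each other, and KO males after FA overlapped co-ex males after FA through FA replicate 3 alone. Co-ex males after FA (169 to 253 rpm) did not overlap KO females after O3 (309 to 512), the next in order, and KO males after O3 (406 to 611) did not overlap co-ex females after FA (802 to 1463). The other neighbours in this order overlapped. How many of all miRNAs show such gaps between these groups was not counted. Without FA replicate 3 the median of KO males after FA was 14.1 rpm, which put them first.

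After FA, the 5 KO libraries other than FA replicate 3 of KO males held 8.59, 9.40, 16.0, 19.6 and 109 rpm. The 8 co-ex FA libraries held 169 rpm or more. The KO values after FA had a part in the choice of the miRNA, so nothing is read from this gap. After O3 the KO libraries, at 309 to 611 rpm, lay within the range of the co-ex libraries, at 162 to 1853 rpm. The lowest values rest on few reads. The 7 reads of KO females, FA replicate 3, give 9.40 rpm with a 95% Wilson interval of 4.55 to 19.4, and the 12 reads of KO males, FA replicate 1, give 8.59 rpm (4.91 to 15.01). The highest, co-ex females after O3, replicate 4, gave 1853 rpm (1695 to 2026) from 482 reads. Such intervals cover counting error only, because reads copied by PCR are not independent molecules. The library codes of co-ex and KO mice did not overlap, so genotype and run of codes cannot be told apart in these levels.

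Males and females were compared within genotype and exposure, with recovered reads and the quasi-likelihood test of edgeR. miR-224-5p was chosen for its rise in KO, so the sex differences of KO libraries are given with no test. The co-ex libraries were tested, though the miRNA was chosen with earlier results of these data known. In co-ex mice after FA, miR-224-5p was lower in males. The 4 male libraries held 179, 169, 214 and 253 rpm. The 4 female libraries held 1463, 881, 802 and 884 rpm. Every male library was below every female library, which was so for 21 of the 238 miRNAs tested (8.82%). The mean in females was 4.94 times that in males, and the log2 fold change of males against females was -2.35 with an approximate standard error of 0.48 (edgeR, adjusted p = 0.0114). In all, 29 miRNAs (12.2%) were called lower in males and 4 (1.68%) higher. The co-ex males and females had separate but adjoining ranges of library codes (81 to 88 and 89 to 96), so sex and code order cannot be told apart here. Red cell miRNAs also differed between these groups, with a summed level of 12810 to 137372 rpm in females after FA and 993 to 4461 rpm in males. The 1 tested, miR-486b-5p, was lower in males (log2 fold change -4.13, edgeR, adjusted p = 0.0114). In co-ex females after O3, red cell miRNAs summed to 2929 to 4284 rpm, while miR-224-5p held 503 to 1853 rpm. The part of red cell miRNAs in the sex difference was not tested.

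In co-ex mice after O3, the sexes did not pass the test. Males held 191, 630, 162 and 1015 rpm. Females held 698, 1748, 503 and 1853 rpm. The groups overlapped, and the log2 fold change of males against females was -1.29 with a standard error of 0.67 (edgeR, adjusted p = 0.237, 244 tested). In both sexes O3 replicates 2 and 4 were the higher libraries. Whether the sex difference changed between FA and O3 was not tested. In KO mice after O3 the sexes overlapped, with 406 to 611 rpm in males and 309 to 512 rpm in females, and a log2 fold change of males against females of 0.36 with a standard error of 0.31. In KO mice after FA the log2 fold change was 3.52 with a standard error of 2.06, and without FA replicate 3 of the males it turned to -1.71.

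miRNAs known from epithelial cells moved with miR-224-5p in KO mice. The list holds 14 miRNAs, the miR-200 family of epithelial cells (200a, 200b, 200c, 141, 429), the miR-34 and miR-449 members of ciliated cells, miR-375 of secretory cells, miR-203 and miR-205, and the miR-182, miR-183 and miR-96 cluster. In KO females its summed level was 2386 to 5908 rpm after FA and 29826 to 54735 rpm after O3. In KO males it was 2741, 3473 and 32525 rpm after FA (replicates 1, 2 and 3) and 28892 to 37277 rpm after O3. FA replicate 3 of KO males thus lay within the O3 range for this list, as the only KO library after FA, and was above it for miR-224-5p. No listed member was at 0 in all libraries of a group.

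The epithelial list was chosen with earlier results of these data known, so its calls are given as a description. In KO females, 10 of the 14 rose after O3 and 0 fell (limma, adjusted p under 0.1, against 10% of all miRNAs tested called higher), and in 12 every O3 library was above every FA library (19.1% of all). Their median log2 fold change was 3.59, against 0.06 over all tested. miR-200a-3p, for example, had 73.9, 149 and 49.6 normalised reads after FA and 799.6, 986 and 1329 after O3 (log2 fold change 3.62, standard error 0.49, adjusted p = 0.00523). In KO males, 1 of the 14, miR-34b-3p, rose (0.909% of all were called higher), and the median was 1.74. Without FA replicate 3, 12 of the 14 were called higher with a median of 2.86, against 15% of the 440 miRNAs tested with all libraries. In co-ex mice 0 of the 13 tested were called in either sex, with medians of 0.74 in females and 0.27 in males. limma gave 2 of them an unadjusted p under 0.05 in females, against 0 in males, and edgeR and DESeq2 called 0 in both.

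miR-224-5p and the epithelial list did not move in a fixed ratio. Per 1000 reads of the list, miR-224-5p had 1.59 to 45.9 reads in KO females after FA (median 4.69) and 7.401 to 12.3 after O3 (median 10.3). In KO males it had 3.13, 5.64 and 41.1 after FA and 13.99 to 16.4 after O3. The highest KO values were those of the FA libraries with most miR-224-5p, replicate 2 of the females and replicate 3 of the males. In co-ex mice the ratio was 17.1 to 36.8 in females after FA, 8.28 to 41.6 in females after O3, 6.56 to 33.7 in males after FA and 11.8 to 67.7 in males after O3. In co-ex mice after FA, 4 of the 12 epithelial miRNAs tested (miR-429-3p, miR-375-3p, miR-34b-3p and miR-34c-5p) were lower in males than in females (12.2% of all tested were), with a median log2 fold change of -0.82, against 0.09 over all tested. The part of epithelial RNA in the level of miR-224-5p was not tested.

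**Figure D3:**
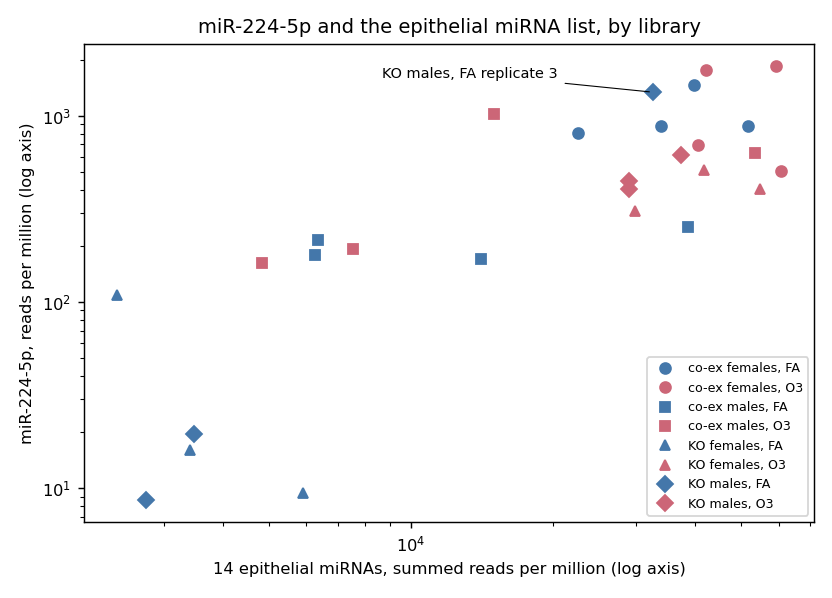
miR-224-5p (vertical, rpm, log axis) against the summed level of the 14 epithelial miRNAs (horizontal, rpm, log axis) in 28 libraries, with colour for exposure and shape for genotype and sex. KO libraries after FA lie between 2386 and 5908 rpm of the list, except FA replicate 3 of the males at 32525 rpm, and KO libraries after O3 lie between 28892 and 54735 rpm.

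Other miRNAs described as NF-kappaB-linked, such as miR-146a, miR-155, miR-21a and miR-132, did not pass the test of O3 against FA in any table with all libraries. limma called 0 of the 8 tested in KO females and 0 of the 9 in KO males (unadjusted p under 0.05 for 1 and 0), as did edgeR and DESeq2. In co-ex mice it called 0 of 7 in each sex, with 1 in females and 0 in males at an unadjusted p under 0.05 and 0 by edgeR and DESeq2. Their medians were -0.12 in KO females, -0.06 in KO males, -0.39 in co-ex females and 0.30 in co-ex males. miR-146b-5p, a feedback inhibitor of Toll-like receptor signalling, had a log2 fold change of -0.75 with a standard error of 0.27 in KO females (adjusted p = 0.132). In KO males without FA replicate 3, 3 of the 9 were called (19.3% of the 440 tested with all libraries were), 1 of them higher after O3 (15% of the 440). The 7 myeloid miRNAs, of which miR-146a-5p, miR-155-5p and miR-21a-5p are also on the NF-kappaB-linked list, had 0 calls by limma, edgeR and DESeq2 in each of the 4 tables, and 0 at an unadjusted p under 0.05. In KO males without FA replicate 3, 1 of the 7 was called lower (19.3% of the 440 were called in either direction).

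Of the 58 X-linked miRNAs besides miR-224-5p, 37 were tested in KO females, where 2 rose after O3 and 0 fell (10% of all tested were called higher and 3.13% lower), and 51 in KO males, where 1 rose (0.909% of all). The median log2 fold changes were -0.01 and -0.11. Without FA replicate 3 of KO males 9 of the 51 were called (19.3% of the 440 tested with all libraries), 4 of them higher after O3 (15% of the 440). In co-ex mice 0 of 33 in females and 0 of 39 in males were called by limma, edgeR and DESeq2, with 2 and 1 at an unadjusted p under 0.05. miR-2137 rose in both KO sexes, from a mean of 124 to 2085 normalised reads in females (log2 fold change 4.67, standard error 0.72, adjusted p = 0.00523) and from 172 to 3047 in males (4.40, standard error 0.57, adjusted p = 0.0257, and 4.97 without FA replicate 3). miR-3473a was the other called in KO females, with 0 reads in all FA libraries and a mean of 30.6 normalised reads after O3 (limma, adjusted p = 0.0655). It passed the filter on low values only through the O3 libraries, where it was high, so its call was favoured by the filter. Between the sexes of co-ex mice after FA, edgeR called 2 of the 27 X-linked miRNAs tested, 1 in each direction (12.2% of all tested were called lower in males and 1.68% higher). DESeq2 called 6 of the 27, against 56 of all 238 tested.

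The miRNAs most like miR-224-5p were found by the correlation of log2(value + 1) across the 28 libraries, among 229 miRNAs that passed the filter in all tables. With values centred within each table, which keeps the difference between exposures, the closest were miR-200a-3p (Pearson 0.80), miR-30a-5p (0.77), miR-34c-5p (0.77), miR-200b-5p (0.76) and miR-429-3p (0.76). The median over the 229 was -0.00037, and 16.6% exceeded 0.5. Points of 1 table share the normalisation of that table, and depth and lavage make-up are shared by all miRNAs of a library, so the correlations are descriptions. Without FA replicate 3 of KO males, 2 of these 5 stayed among the first 5, which were then led by miR-2137 (0.87), miR-6538 (0.82) and miR-1961 (0.81). miR-200a-3p, miR-200b-5p and miR-429-3p belong to 1 gene cluster on chromosome 4, and their sequences, set here against that of miR-224-5p, hold other seeds (capitals; RefSeq, GRCm38.p6).
miR-200a-3p: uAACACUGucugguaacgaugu
miR-200b-5p: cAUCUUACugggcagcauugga
miR-429-3p: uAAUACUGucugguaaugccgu
miR-30a-5p: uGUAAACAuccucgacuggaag
None of these 4 has the seed of miR-224-5p, and the 4 seeds differ from each other.

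In KO females these 5 had log2 fold changes between 2.38 (miR-30a-5p) and 4.62 (miR-34c-5p). They were picked by a correlation that keeps the difference between exposures, so a rise in KO was favoured by the choice. The level differed more than the change did. miR-30a-5p, for example, had 1447, 1069.99 and 801 normalised reads after FA and 3400.3, 6732 and 7679 after O3 in KO females. In KO males after FA, replicate 3 was the highest FA library for each of the 5, as for miR-224-5p, with 3450.4 against 367 and 311 for miR-200a-3p. It was above every O3 library for miR-200a-3p (2465, 2668 and 2039), miR-30a-5p, miR-200b-5p and miR-429-3p, as for miR-224-5p. For miR-34c-5p alone it was below them, with 1275 against 2817, 3329 and 1914.

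**Figure D4:**
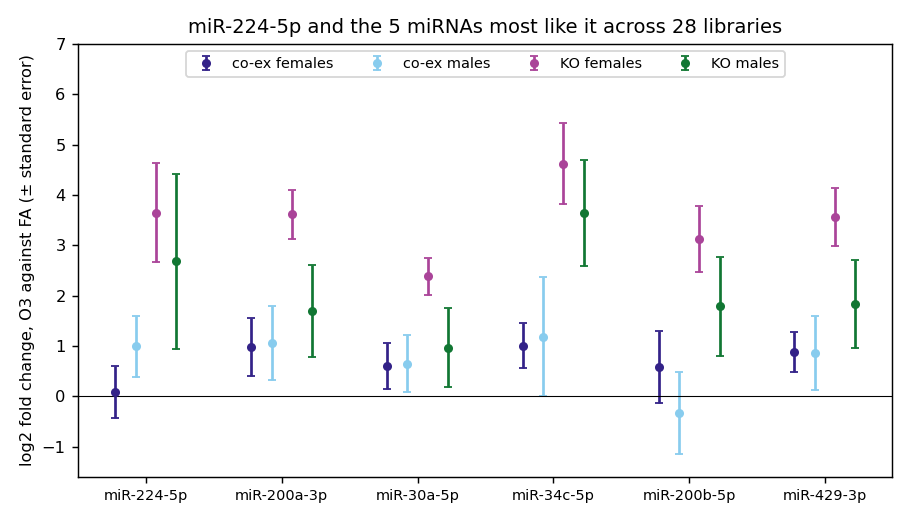
Log2 fold change of O3 against FA (± standard error) of miR-224-5p and the 5 miRNAs with the highest correlation with it, by genotype and sex. In KO females the 6 values lie between 2.38 and 4.62, and in co-ex females between 0.09 (miR-224-5p) and 1.00 (miR-34c-5p). The way the 5 were picked favours changes like those of miR-224-5p.

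With values centred within each of the 8 groups, which leaves only the differences between replicates, the closest were let-7b-5p (0.77), miR-203-3p (0.73), let-7c-5p (0.71), miR-200a-3p (0.67) and miR-200b-5p (0.64). This order rested on FA replicate 3 of KO males. Without it the correlations were 0.31, 0.55, 0.22, 0.45 and 0.27, and miR-2137 (0.64), miR-3470a (0.58) and miR-6538 (0.57) led the order. That library held 57390 normalised reads of let-7b-5p, against 1189 and 2808 in the other FA libraries of KO males, and 1559.6 of miR-203-3p, a miRNA of stratified epithelium, against 59.9 and 55.0. let-7b-5p and let-7c-5p share the seed GAGGUAG and differ only by a g in let-7b-5p against an a in let-7c-5p. Reads could therefore be split between them by the counting.
let-7b-5p: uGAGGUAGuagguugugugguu
let-7c-5p: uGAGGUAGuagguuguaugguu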

How the data were processed

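Small RNA libraries of AM were made and sequenced by the authors, who trimmed the reads with the FASTX-Toolkit, counted miRNAs with Chimira and called changes with edgeR and TCC. The genome build and miRNA release behind the counts are not given in the sources used here. The deposited library columns hold a signal, the reads of each miRNA divided by a size factor, in 1 table for each genotype and sex. Every value was a whole multiple of 1 step (100% within 0.01), so the reads were recovered. The deposited tables also give the authors' mean, log2 fold change, p-value, q-value and a rank score per miRNA, none of which was used.

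O3 was compared with FA within each table by limma 3.58.1 (trended prior, log2 of the value plus a pseudocount of 1). A miRNA was tested if its value reached 5 in a number of libraries equal to the smaller group, and p-values were adjusted by Benjamini-Hochberg over all tested, with a threshold of 0.1. Sexes were compared by edgeR 4.0.16 on recovered reads, over miRNAs listed in both tables, with TMM and its default filter. Alternatives used DESeq2 1.42.0. Scripts ran in R 4.3.3 and Python 3.11.15 (scipy 1.17.1, matplotlib 3.10.9, numpy 2.4.6). The fits were tested on simulated data. Sequences and the X-linked list come from RefSeq tables (GRCm38.p6), in which 517 of the 607 names matched, and gene positions from GENCODE. miR-142 of the myeloid list was matched as miR-142a, the spelling of the tables.

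miR-224-5p and the lists (myeloid, epithelial, endothelial, mesenchymal, red cell, muscle, NF-kappaB-linked, X-linked) were chosen with earlier results of these data known. The miRNAs named are miR-224-5p, list members where a list is reported, and the 5 most like it by each centring. miR-2137, miR-6538, miR-1961 and miR-3470a as the closest without 1 library were named after their values were seen. Replicate numbers were not taken to pair libraries, since in none of the 8 comparisons did every same-numbered pair have a correlation of deviations over 0.1. Between the sexes of KO mice after FA, however, every library correlated best with its own number (same-number correlations 0.07 to 0.20). A planned test of the other arms of miR-224 and miR-452 could not be run because no table here lists them.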

Additional observations from a re-analysis of the deposited data

How the results depend on the processing

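For miR-224-5p, O3 against FA, co-ex females changed sign without some libraries, with log2 fold changes of -0.01 without FA replicate 4, -0.16 without O3 replicate 2 and -0.20 without O3 replicate 4, in a range of -0.20 to 0.46 with each library left out, and no call. Co-ex males ranged from 0.56 to 1.36 with adjusted p between 0.573 and 0.997 over all settings. With each library left out, KO females ranged from 2.94 to 4.68 and KO males from 1.31 to 4.91 (the highest without FA replicate 3), and on recovered reads edgeR gave -0.05 and DESeq2 -0.16 in KO males, the cause of which was not tested. With the replicate block, the sexes of co-ex mice after O3 passed the threshold (log2 fold change -1.31, adjusted p = 0.0645), against -1.86 to -0.98 with each library left out and no block. There the block raised all calls of edgeR from 19 to 63, while the 4 female and 4 male libraries did not all correlate best with their own number. It lowered the calls of limma from 42 to 37 in KO females and from 4 to 1 in KO males. The call in co-ex mice after FA held under all 12 alternatives (adjusted p 1.41e-05 to 0.0786, log2 fold change -2.49 to -1.89). In KO mice after FA the sex difference ranged from -1.71 (without FA replicate 3 of the males) to 5.32 with each library left out, and was 0.01 with the replicate block. List members called between O3 and FA, X-linked miRNAs aside, numbered 10 in KO females (8 to 15 with each library left out), 1 in KO males (0 to 19, the 19 without FA replicate 3) and 1 in co-ex females (0 to 1). Of the 5 most like miRNAs, 2 stayed with Spearman's rank for the table centring and 1 for the group centring. The shallowest library, co-ex females after O3, replicate 1, held 29 reads of miR-224-5p, so its level of 698 rpm has a counting interval of 486 to 1002 rpm.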

Other observations

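The lists of other lavage cells varied between libraries. The summed level of the 2 endothelial miRNAs was 7177 rpm in KO males, FA replicate 3, and 0 to 674 rpm in the other libraries. With all libraries, limma called 0 of them after O3 in any table. In KO females edgeR and DESeq2 each called 1 (36 and 62 of all 319 tested), and both miRNAs had an unadjusted p under 0.05 in limma. In KO males without FA replicate 3, limma called the 1 tested (19.3% of the 440 tested with all libraries were called). Of the 7 mesenchymal miRNAs, limma called 0 in each table (unadjusted p under 0.05 for 1 in KO females and 1 in co-ex females), edgeR called 0, and DESeq2 called 1 in KO females. In KO males without FA replicate 3, limma called 3 of the 6 tested, all higher after O3 (15% of the 440 tested with all libraries were). Muscle miRNAs reached 85312 rpm in KO females, O3 replicate 3, where miR-224-5p held 512 rpm, against 309 and 405 rpm in the other O3 libraries of that group. The muscle list had 0 calls by limma, edgeR and DESeq2, and 0 at an unadjusted p under 0.05, in every table, and limma also called 0 of the muscle and red cell miRNAs in KO males without FA replicate 3. Red cell miRNAs summed to 12810 to 137372 rpm in co-ex females after FA and to 2929 to 4284 rpm after O3, and 1 of the 3 tested there was called lower after O3 by limma and edgeR and 0 by DESeq2. In the other 3 tables red cell miRNAs had 0 calls by limma, edgeR and DESeq2, and 0 at an unadjusted p under 0.05.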
